A study of Mus musculus with 39 samples.

Results

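The genes described are those of the desmosome, the junction that ties keratin filaments of neighbouring epithelial cells together. The rule named 9 of them, Dsc2, Dsc3, Dsg2, Dsg3, Dsp, Jup, Pkp1, Pkp2 and Pkp3, and took for each the probe set with the highest mean over 39 Affymetrix mouse arrays. Of these 9 genes, 8 had a probe set in the annotation used, among 18194 named genes in all, and Dsg3 was not analysed here. By genotype and tissue the arrays fell into 6 groups, and their genotypes are built from SB, Tg, K5Cre and Bcat. Breast of the full combination SB/Tg/K5Cre/Bcat, called quadruple here, was measured on 19 arrays (15 animals). Breast of genotype SB/Tg/k5Cre, called triple K5Cre, was measured on 8 arrays (8 animals), and that of genotype SB/Tg/Bcat, called triple Bcat, on 3 arrays (2 animals). The Bcat masses were 2 breast arrays from 2 Bcat +/- animals, and the Bcat ventral tumours were 3 arrays of 3 tumours of 1 Bcat +/- animal. The 4 normal mammary glands, each of another animal, were of the triple Bcat genotype (gland 1), the quadruple genotype (gland 2) and the triple K5Cre genotype (glands 3 and 4). Every gland therefore came from a genetically altered animal, and SB and Tg were shared by all quadruple, triple and gland samples. Whether the quadruple and triple breast samples were tumours is left unsaid by the labels, and animal age and treatment are not given in the sources used here. No label field gives a strain, but the titles of the masses and ventral tumours, and of no other samples, carry C57 in the animal's name. Any difference of strain cannot be told apart from these groups. By its name K5Cre is a Cre recombinase driven from the keratin 5 promoter, which is active in basal epithelium, and Bcat stands for an allele of beta-catenin that the labels do not describe further.

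In a desmosome, cadherins of the desmocollin and desmoglein families meet across the gap between cells. Inside the cell their tails bind plakoglobin, the product of Jup, and the plakophilins, which in turn bind desmoplakin, the product of Dsp, and desmoplakin holds the keratin filaments. Simple and stratified epithelia use different members: Dsc2, Dsg2 and Pkp2 are the forms found in simple epithelium and heart, while Dsc3, Dsg3 and Pkp1 belong mainly to basal and stratified epithelium. Plakoglobin is a close relative of beta-catenin and also sits in adherens junctions.

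Of the 9 genes, 2 matched an entry of the RefSeq promoter table of build GRCm38.p6, and their promoters are shown as the available ones of this set of genes, most of which moved together across the animals; whether the motifs bear on that was not tested. Each line gives the 250 bases before the gene's start, 5′ to 3′ on the gene's strand, and the capitals mark the letters GGGCGG on either strand, a GC box. That of Jup lies at chr11:100397791-100398040 on the minus strand and that of Dsp at chr13:38151044-38151293 on the plus strand.
Jup: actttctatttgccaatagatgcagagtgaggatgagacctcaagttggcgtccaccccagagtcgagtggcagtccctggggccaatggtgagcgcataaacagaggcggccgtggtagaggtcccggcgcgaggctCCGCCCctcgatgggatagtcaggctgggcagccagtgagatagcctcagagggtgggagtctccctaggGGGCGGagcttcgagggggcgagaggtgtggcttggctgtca
Dsp: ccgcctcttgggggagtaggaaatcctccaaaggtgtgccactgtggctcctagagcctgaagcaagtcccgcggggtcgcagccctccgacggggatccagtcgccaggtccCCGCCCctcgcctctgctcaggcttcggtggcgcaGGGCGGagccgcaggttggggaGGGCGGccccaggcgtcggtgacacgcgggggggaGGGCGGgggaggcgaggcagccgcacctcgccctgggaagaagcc
GGGCGG stood 2 times before Jup, with first bases at -112 and -42 from the start, and 4 times before Dsp, at -137, -102, -80 and -45. Of 32851 promoter windows of this length in the table, 32.7% held it. The letters CACCTG (an E-box, in 17.2% of windows), ATCAAAG (a core of TCF and LEF sites, in 3.2%) and TGANTCA (an AP-1 core, in 6.7%) were in neither window on either strand. GC content was 62.0% before Jup and 72.4% before Dsp, against a median of 52.4% over all windows. These are matches of letters, and no binding was measured.

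All values below are log2 values made by RMA, which brings the arrays to one distribution and gives each probe set a single value. They are compared between samples for the same probe set and never between genes. A difference is the limma fit's log2 difference, with its standard error (SE) and a p adjusted over all 18194 genes, and it is called where that p is under 0.05. Array medians ran from 5.10 to 5.27, and precision is limited by how many arrays a group had. Nothing in the labels says which samples were prepared together. Normal gland 1 stood apart from the other glands, with a mean over 12 squamous markers of 8.41 against 4.98 to 5.15. Quadruple 8 had the lowest Epcam, a general epithelial gene (8.13), and normal gland 3, quadruple 5 and triple K5Cre 2 were low in Xist (5.64, 5.72 and 7.0, against at least 10.77 elsewhere). The glands also held fat and muscle: the mean of 10 adipocyte markers was 11.92 to 12.31 there, against 5.02 to 8.40 in triple K5Cre and 5.14 to 11.94 in quadruple. The luminal markers were present in every gland, with list means of 10.14 to 11.44.

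Against normal gland, 5 of the 8 genes rose in the quadruple breast samples (Dsc3, Dsc2, Pkp1, Pkp3 and Jup), Pkp2 fell, and Dsp and Dsg2 did not pass the test. In this comparison 15.4% of all genes were called, 5.70% higher and 9.66% lower. The median difference of the 8 was 1.37, against 0.008 over all genes. In triple K5Cre against the same glands, Dsc2 and Jup rose and Pkp2 fell, in a comparison where 17.2% of all genes were called (7.44% higher and 9.79% lower), and the median of the 8 was 1.30 against 0.023. The comparisons with normal gland share their 4 gland arrays. Arrays above or below every gland are counted below for the 8 genes only, so no share over all genes stands beside those counts. In bulk tissue, fewer cells of a type and less RNA per cell cannot be told apart.

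**Figure D1:**
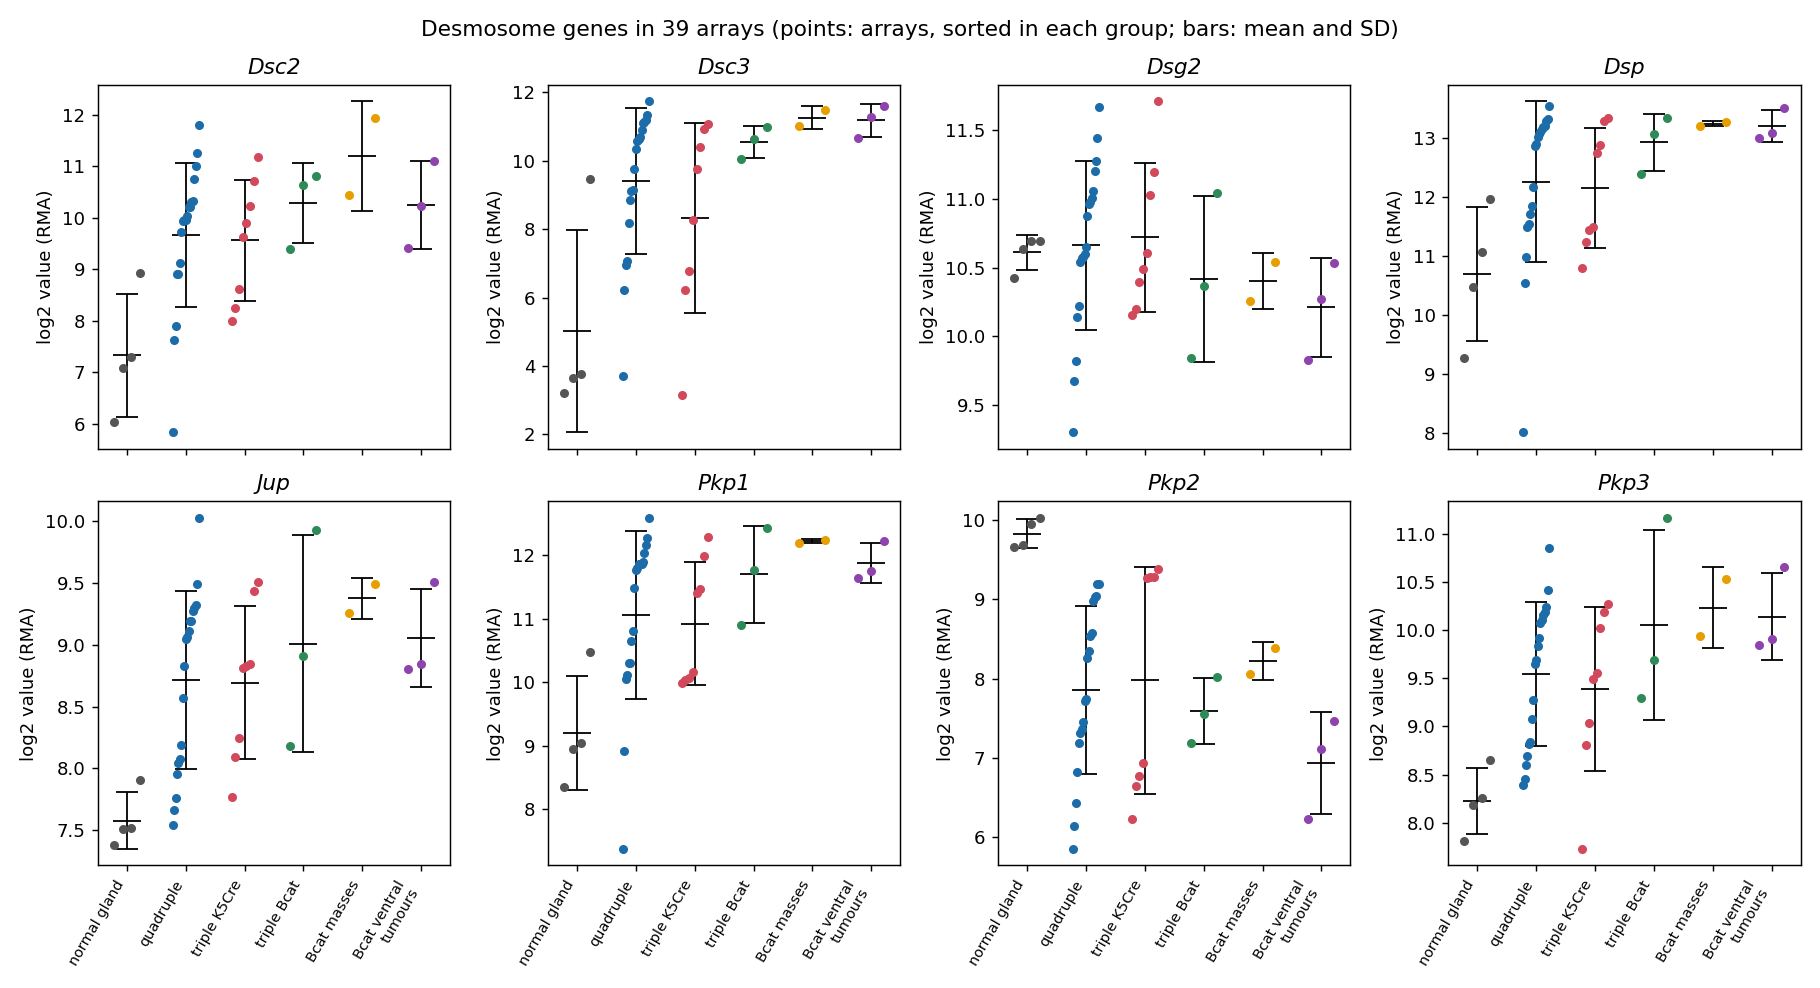
Log2 values (y axis, a separate scale for each gene) of the 8 desmosome genes in the 6 groups (x axis); each point is an array, sorted by value within its group, and the bars give the mean and SD. Normal gland is lowest in mean for Dsc2, Dsc3, Dsp, Jup, Pkp1 and Pkp3 and highest for Pkp2, and Dsg2 lies near the same level in all groups.

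Among the cadherins, Dsc3, the desmocollin of basal and stratified layers (probe set 1434534_at), had the widest range. It stood at 9.46 in normal gland 1 and at 3.21, 3.64 and 3.78 in normal glands 2, 3 and 4. In quadruple its lowest, median and highest values were 3.72, 10.34 and 11.74, and in triple K5Cre 3.16, 9.02 and 11.08. Quadruple 3 and triple K5Cre 2 were the 2 breast arrays as low as glands 2 to 4, and 11 of the 19 quadruple arrays lay above normal gland 1 as well. Triple Bcat had 10.98, 10.65 and 10.05, the masses 11.02 and 11.49, and the ventral tumours 11.615, 10.66 and 11.29, all above every gland. The rise in quadruple was 4.20 (SE 1.20, adjusted p = 0.0134), or 18.4-fold, and that in the masses 6.09 (SE 1.89, adjusted p = 0.0425). In triple K5Cre the difference of 3.25 (SE 1.24) did not pass (adjusted p = 0.0665). Without normal gland 1 the Dsc3 difference was 5.54 in quadruple and 4.47 in triple K5Cre, where it then passed (adjusted p = 0.0144). With the mean of both Dsc3 probe sets it was 2.345 in quadruple (adjusted p = 0.0180), the second being dim (mean 4.82 over the arrays).

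Dsc2, the more widely expressed desmocollin (1426911_at), stood at 8.93, 6.03, 7.29 and 7.08 in normal glands 1 to 4. In quadruple its lowest, median and highest values were 5.835, 9.955 and 11.79. In triple K5Cre they were 7.99, 9.77 and 11.17. Of the 19 quadruple arrays 14 were above every gland and 1, quadruple 9, was below every gland, and of the 8 triple K5Cre arrays 5 were above. Dsc2 rose by 2.30 in quadruple (SE 0.70, adjusted p = 0.0216) and by 2.16 in triple K5Cre (SE 0.73, adjusted p = 0.0357). The masses, at 11.94 and 10.44, were also above every gland, a rise of 3.78 (SE 1.11, adjusted p = 0.0306). So were triple Bcat (10.635, 10.82 and 9.39) and the ventral tumours (10.22, 9.41 and 11.10), whose differences of 2.91 and 2.83 did not pass (adjusted p = 0.0793 and 0.159).

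Dsg2, the desmoglein of simple epithelia (1439476_at), differed least between groups. It stood at 10.69, 10.42, 10.63 and 10.69 in the glands, the narrowest spread of the 8 genes there (SD 0.13). In quadruple it ran from 9.30 over a median of 10.65 to 11.665, and in triple K5Cre from 10.16 over 10.54 to 11.705. Of the 19 quadruple arrays 9 were above and 5 below every gland, so the breast arrays spread on both sides of the gland level. The difference was 0.056 in quadruple (95% interval -0.555 to 0.67, adjusted p = 0.937) and 0.083 in triple K5Cre (-0.55 to 0.715, adjusted p = 0.898). Triple Bcat stood at 9.84, 11.04 and 10.37, with 1 array above and 2 below every gland. The masses (10.26 and 10.54) and the ventral tumours (10.27, 9.83 and 10.54) each had an array within the gland range and the others below it.

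Dsp, which encodes desmoplakin, the link to keratin (1435494_s_at), was at 11.98, 9.26, 11.07 and 10.48 in the glands. In quadruple its lowest, median and highest values were 8.003, 12.91 and 13.55, and in triple K5Cre 10.79, 12.12 and 13.35. Quadruple 3 was below every gland, and 12 of 19 quadruple and 4 of 8 triple K5Cre arrays were above every gland. The differences of 1.52 in quadruple (SE 0.64, adjusted p = 0.105) and 1.43 in triple K5Cre (SE 0.66, adjusted p = 0.137) did not pass. Triple Bcat (13.34, 13.07 and 12.40), the masses (13.28 and 13.22) and the ventral tumours (13.52, 13.09 and 13.01) were all above every gland. Their differences, 2.26, 2.53 and 2.49, did not pass either (adjusted p = 0.137, 0.123 and 0.174).

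Among the armadillo proteins, Jup, the plakoglobin gene (1426873_s_at), was low in all glands, at 7.91, 7.515, 7.51 and 7.38. Its lowest, median and highest values were 7.54, 9.05 and 10.03 in quadruple and 7.765, 8.82 and 9.51 in triple K5Cre. No breast or tumour array was below every gland, and 16 of 19 quadruple and 7 of 8 triple K5Cre arrays were above every gland. Jup rose by 1.17 in quadruple (SE 0.37, adjusted p = 0.0275), by 1.16 in triple K5Cre (SE 0.385, adjusted p = 0.0324) and by 1.83 in the masses (9.26 and 9.495; SE 0.585, adjusted p = 0.0488). Triple Bcat (9.93, 8.91 and 8.18) and the ventral tumours (9.51, 8.805 and 8.85) lay above every gland, with differences of 1.55 and 1.51 that did not pass (adjusted p = 0.0757 and 0.156).

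Pkp1, the plakophilin of stratified epithelium (1449586_at), was at 10.47, 8.36, 9.04 and 8.95 in the glands. Its lowest, median and highest values were 7.38, 11.77 and 12.59 in quadruple and 9.99, 10.78 and 12.28 in triple K5Cre. The lowest was quadruple 3 again, the 1 array below every gland, while 13 of 19 quadruple and 4 of 8 triple K5Cre arrays were above every gland. Pkp1 rose by 1.87 in quadruple (SE 0.62, adjusted p = 0.0342) and by 3.04 in the masses (12.19 and 12.24; SE 0.97, adjusted p = 0.0485). In triple K5Cre it was 1.77 higher (SE 0.64, adjusted p = 0.0514), just over the threshold. Triple Bcat (12.43, 11.765 and 10.90) and the ventral tumours (12.23, 11.64 and 11.75) were 2.59 and 2.695 higher and did not pass (adjusted p = 0.0728 and 0.122).

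Pkp3, a plakophilin found in most desmosomes (1418831_at), was at 8.65, 7.81, 8.26 and 8.19 in the glands. Its lowest, median and highest values were 8.39, 9.69 and 10.86 in quadruple and 7.73, 9.52 and 10.28 in triple K5Cre. It was above every gland in 16 of 19 quadruple and 7 of 8 triple K5Cre arrays, and triple K5Cre 2 was below every gland. Pkp3 rose by 1.21 in quadruple (SE 0.41, adjusted p = 0.0409), and in triple K5Cre it was 1.07 higher (SE 0.43, adjusted p = 0.0812). Triple Bcat (11.17, 9.69 and 9.30), the masses (9.94 and 10.53) and the ventral tumours (10.66, 9.85 and 9.91) were above every gland by 1.85, 1.92 and 1.83 in the fit, and none of these passed (adjusted p = 0.0552, 0.0650 and 0.117).

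Pkp2, the plakophilin of simple epithelium and heart (1449799_s_at), went the other way. It was at 10.03, 9.94, 9.65 and 9.69 in the glands. Its lowest, median and highest values were 5.85, 7.74 and 9.20 in quadruple and 6.22, 8.105 and 9.39 in triple K5Cre. Every one of the 35 breast and tumour arrays was below every gland. How many of all genes separate from the glands in this way was not counted. Triple Bcat was at 7.19, 8.02 and 7.56, the masses at 8.39 and 8.05, and the ventral tumours at 6.22, 7.12 and 7.46. Pkp2 fell by 1.925 in quadruple (SE 0.555, adjusted p = 0.0143) and fell by 1.82 in triple K5Cre (SE 0.57, adjusted p = 0.0236). The differences of -2.265 in triple Bcat, -1.59 in the masses and -2.88 in the ventral tumours did not pass (adjusted p = 0.0836, 0.297 and 0.0625). The 8 triple K5Cre arrays split in this gene: arrays 1, 2, 6 and 7 were at 9.39, 9.27, 9.28 and 9.28, and arrays 3, 4, 5 and 8 at 6.78, 6.65, 6.22 and 6.94.

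**Figure D2:**
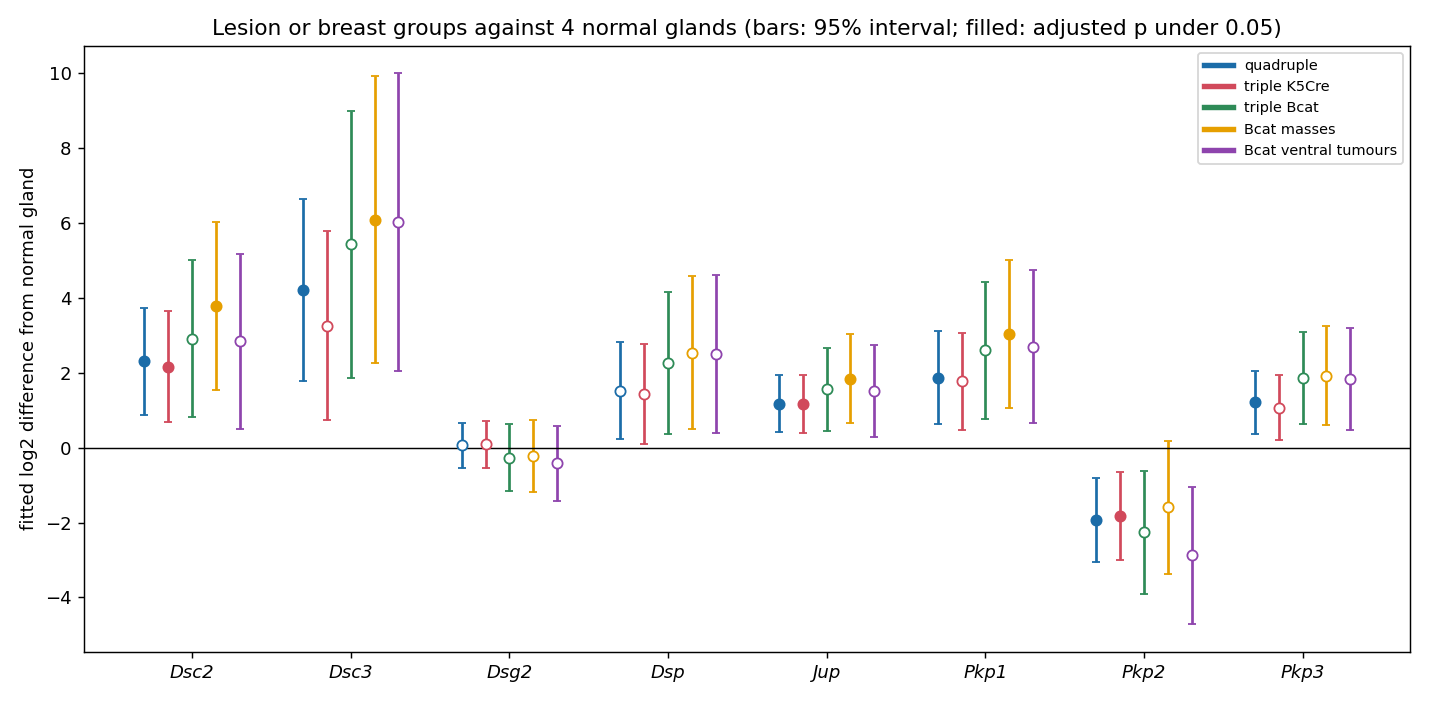
Fitted log2 difference of each group from the 4 normal glands (y axis) for each desmosome gene (x axis); bars are 95% intervals, and filled points passed at an adjusted p under 0.05. Pkp2 is below 0 in all 5 groups, Dsg2 is near 0, and the other 6 genes are above 0 in all 5.

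In the masses 4 of the 8 genes rose (Dsc2, Dsc3, Jup and Pkp1), where 7.28% of all genes were called, 2.60% higher. None of the 8 passed in triple Bcat, where 7.12% of all genes were called, or in the ventral tumours, where 4.03% were, by limma with adjusted p under 0.05. In both of these, 7 of the 8 had an unadjusted p under 0.05 by limma. Of all 18194 genes, 4021 did in triple Bcat and 3407 in the ventral tumours. The medians of the 8 were 2.06 in triple Bcat, 2.23 in the masses and 2.16 in the ventral tumours, against -0.006, 0.002 and -0.011 over all genes. With array weights 7 of the 8 genes passed in triple Bcat, where 6581 of all genes then passed against 1296 without weights, and 7 in the ventral tumours, where 5717 passed against 734. A fit of the ventral tumours and glands alone also gave 7, with 4398 of all genes, and these 3 tumours are 1 animal.

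The calls changed when single glands were left out. Left out in turn, normal glands 1, 2, 3 and 4 left 5, 1, 2 and 0 of the 8 genes called in quadruple, 4, 0, 1 and 0 in triple K5Cre, and 3, 0, 0 and 0 in the masses. Of all genes 2253, 2057, 1671 and 2104 were then called in quadruple, against 2794 with all glands, and 2655, 2488, 1770 and 2360 in triple K5Cre, against 3134. In the masses 1179, 990, 744 and 966 of all genes were then called, against 1324. With either mass left out, that group was a single array, so no count is given. Leaving out the 3 arrays low in Xist was a choice made after seeing the data. It left 4 of the 8 genes called in quadruple, 3 in triple K5Cre and 2 in the masses. Of all genes 1741, 1856 and 836 were called there. Without quadruple 8 the count in quadruple was 6, and 3040 of all genes were called. Pkp2 was called in quadruple without gland 1, 2 or 3 (adjusted p = 0.0471, 0.0467 and 0.0258) but not without gland 4 (0.0603). Without normal gland 4 the Dsc3 difference in quadruple was 3.33 (adjusted p = 0.110).

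The adipocyte and muscle markers moved with these comparisons. All 10 measured adipocyte genes and all 11 muscle genes fell in quadruple and in triple K5Cre, with median differences of -5.12 and -6.15 in quadruple. With both list means as covariates 0 of the 8 desmosome genes were called in any of the 5 comparisons with normal gland, and 50 of all genes were called in quadruple (1489 at an unadjusted p under 0.05). In that fit the quadruple difference was -0.99 for Dsc2, 2.64 for Dsc3 and -0.30 for Pkp2 (adjusted p of at least 0.773). Only quadruple 2, at 11.94, reached the adipocyte mean of any gland, so differences from gland in that fit are extrapolated. In quadruple all 8 measured genes of mitosis rose, with a median difference of 1.996, and 5 of 9 endothelial genes fell. Of 13 general epithelial markers 0 passed in quadruple by limma (median 0.076). At an unadjusted p under 0.05 there were 2 of them, against 5062 of all 18194 genes. The markers' list mean was 9.10 to 9.73 in the glands and 7.0 to 10.68 in quadruple. With that list mean as a covariate 6 of the 8 desmosome genes were called in quadruple and 5 in triple K5Cre, while all genes called numbered 3072 and 3573. Within the 2 animals with both tissues, T627 and T635, a fit with the animal as a block called 0 of the 8 in triple K5Cre. That fit called 0 of all genes too, so its count does not set the 8 apart.

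Ranked by group mean, Dsc2, Dsc3, Dsp, Jup, Pkp1 and Pkp3 had the masses highest and normal gland lowest, with triple K5Cre next above the glands and quadruple above that. For Dsp the means ± SD were 13.25 ± 0.042 in the masses (n = 2), 13.21 ± 0.275 in the ventral tumours (n = 3), 12.94 ± 0.48 in triple Bcat (n = 3), 12.26 ± 1.365 in quadruple (n = 19), 12.155 ± 1.02 in triple K5Cre (n = 8) and 10.70 ± 1.14 in normal gland (n = 4). For each of these 6 genes the step from triple K5Cre to normal gland exceeded the larger SD of that pair, though the ranges overlapped. Of the other neighbours in this order, the step exceeded the larger SD only for Dsc3 between ventral tumours and triple Bcat (0.63 against 0.48) and for Pkp1 between masses and ventral tumours (0.34 against 0.31), again with overlapping ranges. For Dsg2 no neighbours differed beyond their SD. For Pkp2 normal gland (9.83 ± 0.185, n = 4) was highest and did not overlap the masses (8.22 ± 0.235, n = 2). At the other end of the Pkp2 order, triple Bcat and the ventral tumours differed by 0.65, just over the larger SD of 0.64.

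In the comparisons run between breast and tumour groups no difference in these genes passed. Pairs of these groups that are not named next were not compared. Quadruple against triple K5Cre, triple Bcat, the masses and the ventral tumours, and triple K5Cre against triple Bcat, each gave 0 of the 8 genes by limma at an adjusted p under 0.05 and 0 at an unadjusted p under 0.05. Of all genes 0, 0.0330%, 0.214%, 0.143% and 0.0385% were called in the same order. In that order 811, 1527, 1472, 1716 and 2206 of all 18194 genes had an unadjusted p under 0.05 by limma. Quadruple and triple K5Cre, which differ in the Bcat element, were closest for Jup (difference 0.009, 95% interval -0.58 to 0.60) and farthest apart for Dsc3 (0.95, interval -0.95 to 2.86). For Dsp the interval of that difference was -0.92 to 1.10, so differences of almost 1 log2 unit in either direction were not excluded. For Pkp2 it was -0.98 to 0.78, so a value lower by almost 1 in quadruple was not excluded. Against the masses, quadruple had lower values in 7 of the 8 genes, with Dsg2 the exception (0.29, interval -0.55 to 1.12), and a median difference of -0.86. The interval for Dsc2 there was -3.44 to 0.47.

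The spread within groups was wide for most of these genes. The pooled SD within groups was 2.23 for Dsc3, 1.27 for Dsc2, 1.17 for Dsp, 1.12 for Pkp1, 1.045 for Pkp2, 0.74 for Pkp3, 0.65 for Jup and 0.55 for Dsg2. The median over all genes was 0.305 (SD), and 99.2% of genes had a smaller SD than Dsc3 and 75.2% a smaller one than Dsg2. Averaged over the 8 genes, each scaled to unit SD over the arrays, the highest quadruple array was quadruple 11 (0.75) and the lowest quadruple 3 (-1.04). Pkp2 and Dsg2, which ran against the other genes across animals (below), enter this mean with the same sign as the others. Quadruple 10, highest in Dsc3, Dsp and Pkp1 but low in Pkp2 and Dsg2 (7.32 and 9.68), had 0.58. The highest and lowest triple K5Cre arrays were 8 (0.55) and 2 (-0.73). Among the glands, gland 1 was highest (-0.14) and gland 2 lowest (-1.42). Quadruple 3 had Dsc3 at 3.72, Dsp at 8.003 and Pkp1 at 7.38, all near or below the glands, with Epcam at 12.85. Quadruple 8, lowest in Epcam, still had Dsp at 11.71, Dsg2 at 10.54 and Pkp2 at 8.35.

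**Figure D3:**
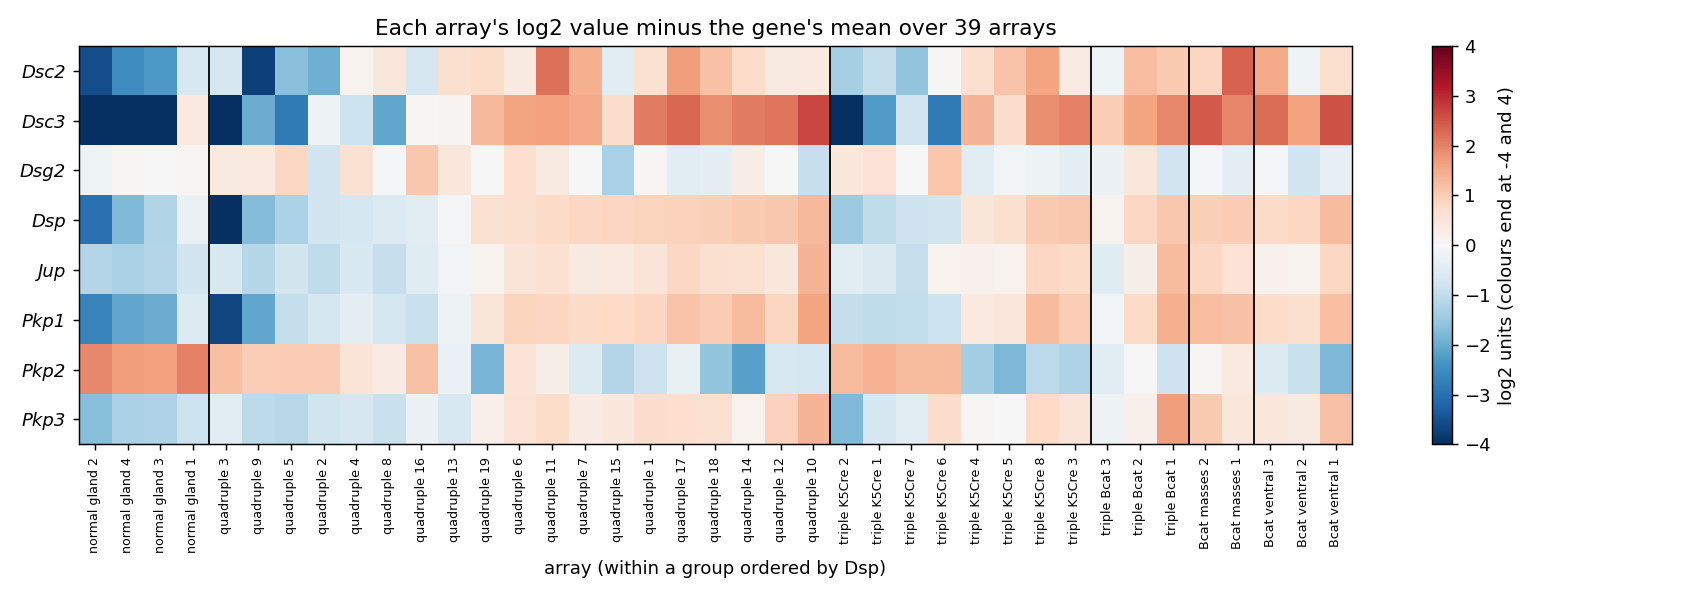
Each array's log2 value minus the gene's mean over the 39 arrays, as colour (red higher, blue lower, colours ending at -4 and 4), with desmosome genes in rows and arrays in columns, ordered by Dsp within each group. Dsc3, Dsp, Jup, Pkp1 and Pkp3 change colour together along each group, and Pkp2 is red mostly where Dsp is blue.

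Across animals the genes moved together in 2 opposite sets. Arrays of an animal were averaged and glands left out, which gave 28 animals and 28 pairs of genes, each tested by 100000 permutations with Benjamini-Hochberg adjustment. Dsp and Pkp1 were the closest pair, with Pearson's r of 0.979 (Spearman's rho 0.952). Its adjusted permutation p was 2.8e-05, from a raw p of 1e-05, the smallest these permutations can give. That pair had r of 0.984 in the 15 quadruple animals, and of 0.971 over all animals without the 2 farthest in Dsp. Dsc3 followed with Dsp (r 0.911, rho 0.911) and with Pkp1 (r 0.883, rho 0.903), and Jup paired most closely with Pkp3 (r 0.867, rho 0.875), each with an adjusted permutation p of 2.8e-05. All 15 pairs among Dsc2, Dsc3, Dsp, Jup, Pkp1 and Pkp3 were positive, from 0.667 (Dsc2 and Dsp) to 0.979. The points share the array platform and its normalization, and animals of 5 groups, which differ in mean, are pooled in them.

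Pkp2 was negatively correlated with each of those 6 genes, from -0.503 with Pkp3 (rho -0.437, adjusted permutation p = 0.00773) to -0.697 with Dsp (rho -0.743, adjusted permutation p = 2.8e-05). Without the 2 animals farthest in Dsp the last was -0.764, and in the 15 quadruple animals -0.663. Dsg2 sided with Pkp2 (r 0.546, rho 0.593, adjusted permutation p = 0.00383) and was negative with the 6. It passed with Dsc3, Dsp, Jup and Pkp1 (r -0.479, -0.449, -0.384 and -0.466) but not with Dsc2 (r -0.199, rho -0.323, adjusted permutation p = 0.31) or Pkp3 (r -0.371, rho -0.335, adjusted permutation p = 0.0534). In the quadruple animals alone Dsg2 had r of -0.28 with Dsp and of 0.42 with Pkp2. The triple K5Cre animals lay in 2 separate sets of 4 in both Dsp (10.79 to 11.49, and 12.75 to 13.35) and Pkp2, so no correlation is given within them. The set low in Dsp was the set high in Pkp2.

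**Figure D4:**
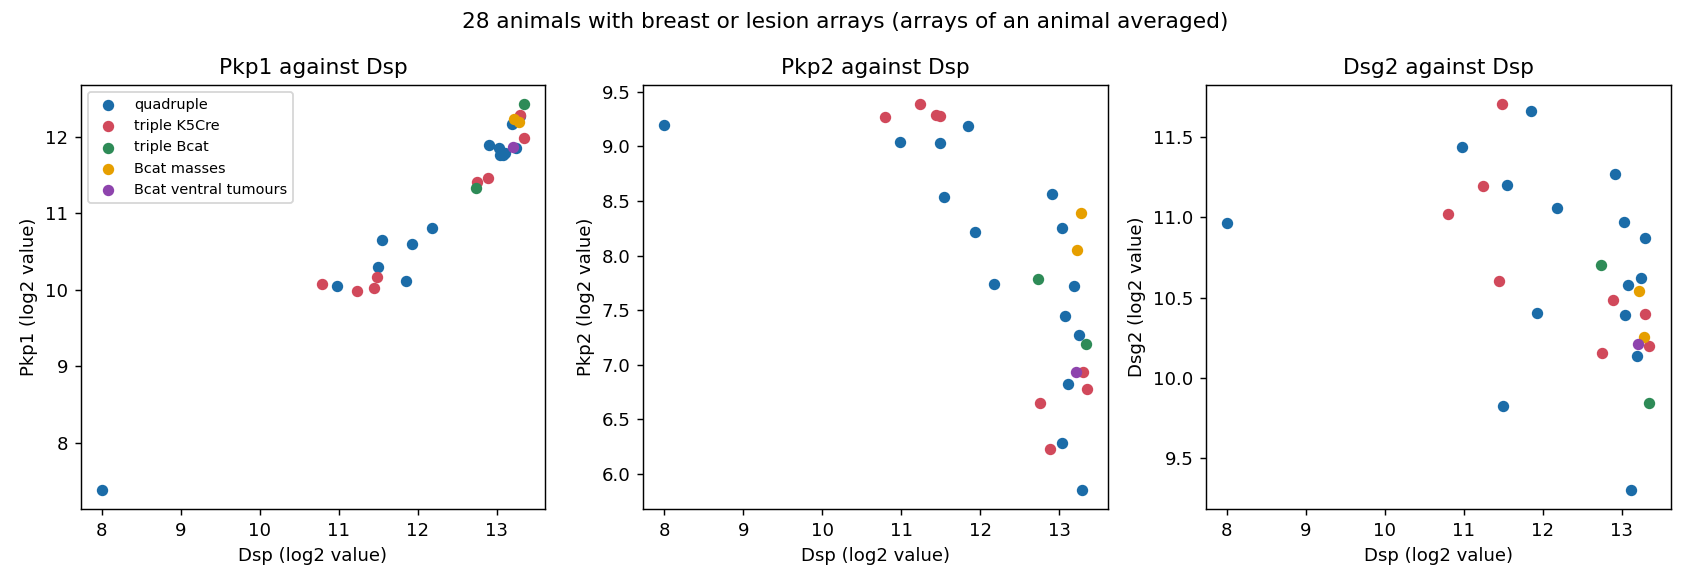
Log2 values of Pkp1, Pkp2 and Dsg2 (y axes) against Dsp (x axis) in 28 animals with breast or tumour arrays, arrays of an animal averaged, coloured by group. Pkp1 rises along Dsp (r 0.979), Pkp2 falls (r -0.697) and Dsg2 falls less closely (r -0.449).

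Against cell type marker lists, the same 28 animals gave 48 relations. The mean of 12 squamous markers, genes of cornifying epithelium, was positive with Dsc2, Dsc3, Dsp, Jup, Pkp1 and Pkp3, from r 0.675 (Dsc2, rho 0.635) to 0.855 (Dsc3, rho 0.831). It was negative with Pkp2 (r -0.774, rho -0.733) and Dsg2 (r -0.689, rho -0.682). All 8 passed, with adjusted permutation p between 8e-05 and 0.000528. The mean of 10 luminal markers ran the other way, with r of 0.765 for Dsg2 (rho 0.762) and 0.714 for Pkp2 (rho 0.759), and adjusted permutation p of 0.00012 and 8e-05. With Dsc2, Dsc3, Dsp, Jup, Pkp1 and Pkp3 it was negative but weaker, from r -0.457 (Dsp, rho -0.652) to -0.568 (Jup, rho -0.54). All of these passed, with adjusted permutation p from 0.00448 to 0.03. In the 15 quadruple animals alone they ran from -0.196 (Dsc3) to -0.374 (Jup), against 0.68 for Dsg2 and 0.623 for Pkp2. Triple K5Cre arrays 1, 2, 6 and 7, those high in Pkp2, had squamous means of 5.63, 4.40, 5.89 and 8.84 and luminal means of 10.72, 10.35, 11.94 and 10.72. Arrays 3, 4, 5 and 8 had squamous means of 12.43, 11.93, 11.33 and 12.41 and luminal means of 8.94, 8.87, 8.97 and 8.77. Other lists also moved with single genes. The fibroblast mean was positive with Dsc3 (r 0.575, rho 0.53, adjusted permutation p = 0.00498) and negative with Dsg2 (r -0.534, rho -0.578, adjusted permutation p = 0.00888). With Dsp (r 0.551, rho 0.388) and Pkp1 (r 0.496, rho 0.307) it was positive and passed by r only. The adjusted permutation p for rho was 0.0732 and 0.163. Without the 2 animals farthest in the gene, r was 0.273 for Dsp and 0.225 for Pkp1. The general epithelial mean was negative with Dsc3 (r -0.60, rho -0.583, adjusted permutation p = 0.00225), Dsp and Pkp1 and positive with Dsg2 (r 0.636, rho 0.67, adjusted permutation p = 0.00131) and Pkp2. The adipocyte mean was negative with Dsc2 (r -0.599, rho -0.571, adjusted permutation p = 0.00164), Jup (r -0.573, rho -0.469, adjusted permutation p = 0.00285) and Pkp3. The remaining relations with these 3 lists did not pass by r. None of the relations with the 8 basal and myoepithelial markers passed (adjusted permutation p of at least 0.0612, for Dsc3 at r 0.41, rho 0.156). That list joins genes that differed from gland in opposite directions in quadruple. Krt5, Krt14 and Trp63 were higher (1.55, 2.17 and 1.05). Acta2, Myh11, Cnn1, Oxtr and Mylk were lower (-0.98, -2.71, -2.65, -2.55 and -1.42), and only Oxtr was called. The list mean can therefore hide a relation with either part, and the parts were not tested apart. Whether the mix of cell types accounts for the levels of these genes was not tested.

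Arrays of 1 animal could agree closely or differ as much as arrays of different animals. In Q190 (quadruple 1 and 12) the 8 genes differed by 0.001 to 0.25 between the arrays, and in Q2154 (quadruple 18 and 19) by 0.29 to 0.56. In Q648 (quadruple 8, 9 and 10) Dsc3 was 6.96, 7.07 and 11.74, Dsc2 10.03, 5.835 and 9.955, Dsp 11.71, 10.54 and 13.55, and Pkp1 10.30, 8.93 and 12.59. Quadruple 10 of that animal was the highest of all 39 arrays in Dsc3, Dsp and Pkp1, and its Pkp2, at 7.32, was the lowest of the animal's 3 values (8.35 and 8.98 in the others). The 3 ventral tumours of C57-1650 differed by 0.51 in Dsp and by 1.69 in Dsc2.

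The 2 animals with both tissues differed from each other. In T635 breast stood above gland in Dsc3 (11.08 against 3.78), Dsp (13.35 against 10.48), Pkp1 (11.99 against 8.95) and Jup (9.43 against 7.38), and below it in Pkp2 (6.78 against 9.69). In T627 the 2 tissues were close in Dsc3 (3.16 in breast, 3.64 in gland), Dsp (10.79 and 11.07) and Pkp2 (9.27 and 9.65), with Pkp1 at 10.07 against 9.04. The breast array of T627 and its gland were both low in Xist, and this breast array had the lowest keratin 5 gene, Krt5, among the triple K5Cre arrays (5.74).

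**Figure D5:**
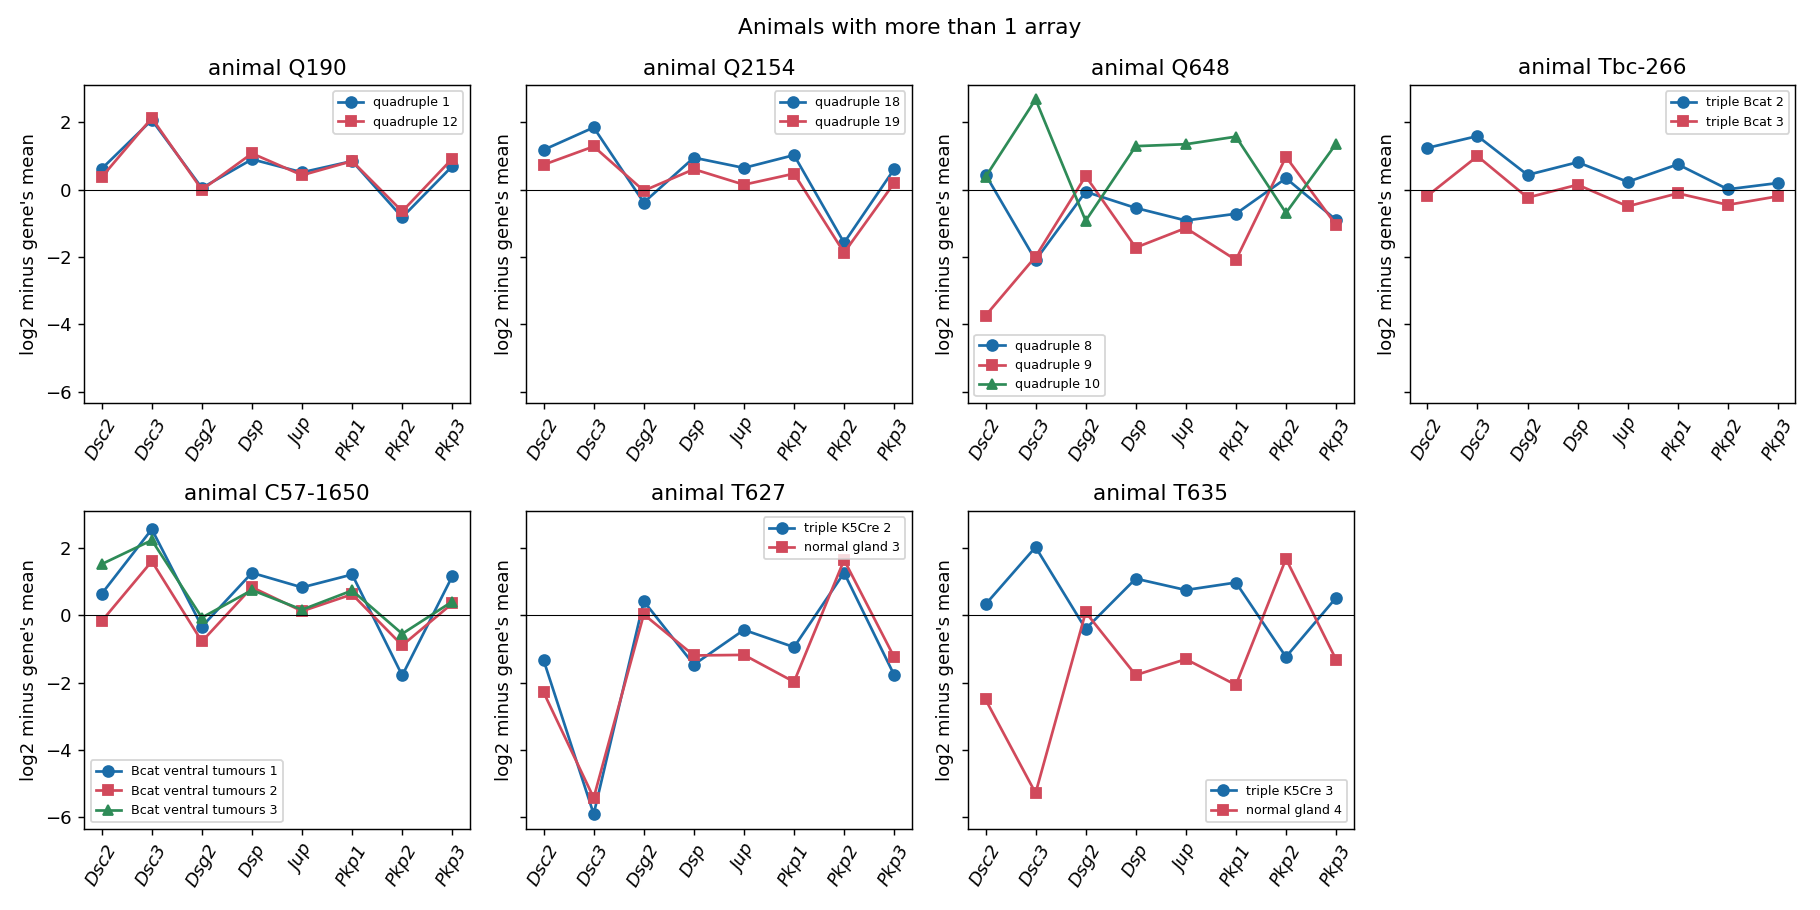
Log2 value minus the gene's mean over 39 arrays (y axis) for the 8 desmosome genes (x axis) in the 7 animals with more than 1 array, each line an array. The lines lie together in Q190 and Q2154, spread apart in Q648 (Dsc3 from 6.96 to 11.74), and part between breast and gland in T635 but not for Dsc3, Dsp and Pkp2 in T627.

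Most probe sets of a gene followed the chosen one. The 8 genes had 21 probe sets, and Jup and Pkp1 had 1 each. The correlation with the chosen set over the arrays was 0.993 for the second Dsp set, 0.986 for a second Pkp2 set, 0.983 for a second Dsg2 set, 0.979 for the other Pkp3 set and 0.935 for the other Dsc2 set. It was lower for dim sets: 0.712 for the other Dsc3 set, 0.682 for a Dsg2 set with a mean of 4.44 and 0.627 for a Pkp2 set with a mean of 4.08. In normal gland and quadruple the second Pkp2 set had means of 8.93 and 7.06, the direction of the chosen set.

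Of the other genes of the desmosome, 7 of a list of 9 were measured. Only Perp, a membrane protein needed for desmosome assembly, rose in quadruple (12.37 against 10.24, a difference of 2.06, SE 0.62, adjusted p = 0.0190), and none fell. The median of these 7 was 2.06. The envoplakin gene Evpl (1.95, SE 0.77, adjusted p = 0.0815) and the desmocollin gene Dsc1 of upper epidermal layers (4.25, SE 1.74, adjusted p = 0.0957) did not pass. In triple K5Cre none passed by limma, with Perp at 1.775 (adjusted p = 0.0507) and Evpl at 1.88 (adjusted p = 0.102). There 3 of the 7 had an unadjusted p under 0.05, against 5368 of all 18194 genes. None passed in the other 3 comparisons with gland either. In each of those, 5 of the 7 had an unadjusted p under 0.05 by limma. Of all genes 4021 did in triple Bcat, 3851 in the masses and 3407 in the ventral tumours.

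Of 13 keratin genes, the filaments that desmoplakin holds, 0 passed by limma against gland in any of the 5 comparisons. In that fit 7 of them in quadruple and 1 in triple K5Cre had an unadjusted p under 0.05. Of all 18194 genes, 5062 and 5368 did. In quadruple the smallest p-values were those of Krt16 (4.63, SE 1.68, adjusted p = 0.0576) and Krt6a (3.57, SE 1.31, adjusted p = 0.0589), keratins of activated epidermis. In triple Bcat Krt6a was 5.83 higher (SE 1.91, adjusted p = 0.0560) and Krt16 7.48 higher (SE 2.46, adjusted p = 0.0573). Of 9 adherens junction genes Nectin4 alone rose in quadruple (1.46, SE 0.42, adjusted p = 0.0146) and in triple K5Cre (1.44, SE 0.44, adjusted p = 0.0187), and the catenin gene Ctnnd1 alone in the masses (1.15, SE 0.27, adjusted p = 0.00853). Ctnnb1, the gene of beta-catenin, did not pass in quadruple (0.18, SE 0.13, adjusted p = 0.384). Of 8 genes of the hemidesmosome, the junction with the basement membrane, the integrin gene Itgb4 rose in quadruple (1.20, SE 0.30, adjusted p = 0.00432), while Dst (-1.53, SE 0.41) and Cd151 (-0.81, SE 0.21) fell. In triple K5Cre Itgb4 (1.28, SE 0.31) also rose and Dst (-1.88, SE 0.43) also fell. Of 14 transcription regulators of epithelium 4 rose in quadruple: Grhl3 (3.34, SE 1.06), Zfp750 (1.54, SE 0.51), Tfap2a (0.86, SE 0.25) and Grhl2 (0.68, SE 0.22). In triple K5Cre Klf5 (1.78, SE 0.52) and Grhl2 (0.91, SE 0.23) rose and Zeb2, a repressor of epithelial genes, fell (-1.70, SE 0.585).

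The genes most like the scaled mean of the 8 over the 39 arrays, by Pearson's r, were Perp (0.918), Sfn (0.915), Krt6a (0.907), Nrarp (0.895), Sdc1 (0.887), Lypd3 (0.881), Reep4 (0.872) and Tmprss11e (0.872). In that mean Pkp2 and Dsg2 carry the same sign as the genes they ran against. Single genes had their own nearest patterns. Dsp and Pkp1 were each other's most correlated gene of all (0.976), and Perp was nearest to Dsc3 (0.958). Lypd3 was nearest to Jup (0.934), Cyp51 to Pkp3 (0.932) and Gsto1 to Dsc2 (0.869). Pkp2 was nearest to Gca (0.911) and Zdhhc2 (0.886), and Dsg2 to Tcaf2 (0.788) and Slc35a3 (0.771). The ranking for the scaled mean left out the 8 genes themselves and genes with clone or Riken names. That for a single gene left out only the gene itself. These were otherwise the highest of all genes and are given as a description, over arrays that include the differences between groups.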

How the data were processed

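Total RNA was extracted with a Qiagen column kit and labelled with biotin by the Affymetrix 3' IVT protocol, per the labels' protocols. Per the submitters' processing notes the authors made the values with RMA (version not stated), and the table as deposited gives them on the log2 scale for 45101 probe sets. Values ran from 1.65 to 14.61. Detection calls were not used, so low values were not separated from background.

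Of the probe sets, 34958 carried 1 gene in the platform annotation, 932 carried several and 9211 none. Each of 18194 genes was represented by its set with the highest mean over the arrays, with cross-hybridising sets used only where no other existed. Symbols were checked in a RefSeq gene table, which lacked 204 of the sets' genes. Sequences come from RefSeq, GRCm38.p6.

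All 39 arrays entered 1 limma fit with a mean per group, the animal (30, read from the titles) as a random block (consensus correlation 0.329), eBayes with a trend, and Benjamini-Hochberg adjustment in each of 10 comparisons. Because of the block, a fitted difference need not equal that of the group means. Replicate numbers only order the arrays. They pair no samples, and the pairing of T627 and T635 comes from their shared identifiers. Where nothing says otherwise, p-values measure the spread between these samples.

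Genes named are the 9 members and, from each other list, up to 3 called rises and falls or the 2 smallest p, plus the most correlated genes. Xist and Epcam in single arrays were added after seeing the values. The members and lists were chosen with earlier results of these data known. Alternatives were no block, animal means, the compared groups alone, a filter on low genes, cyclic loess, array weights, averaging a gene's probe sets, list covariates and leaving out arrays. Leaving out the 3 Xist-low arrays or quadruple 8 was chosen after seeing the data. The fit was tested on simulated data. Fits used limma 3.58.1 in R 4.3.3. The other steps used scipy 1.17.1, pandas 2.3.3, numpy 2.4.6 and matplotlib 3.10.9 in Python 3.11.15.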

Additional observations from a re-analysis of the deposited data

Results flagged for a closer look

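Dsc3 in normal gland 1 was 9.46, far from the other 3 glands (3.21 to 3.78), with a gap of 0.909 of the whole range, above the limit of 0.829 for 4 samples. The 8 genes were examined in the groups of 4 and 8 arrays, 16 sets in all, and chance gives such a gap in about 5% of sets. Normal gland 1, of the triple Bcat genotype, also had the highest squamous mean (8.41) and keratin mean (10.53) of the glands. These lists share Krt1 and Krt10, so the means are not separate observations. Its part in the Dsc3 value was not tested.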

How the results depend on the processing

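The count of the 8 genes called is 6 in quadruple, 3 in triple K5Cre, 0 in triple Bcat, 4 in the masses and 0 in the ventral tumours, each against normal gland, and it stayed at 0 in the 5 other comparisons under every alternative run. It became 3 in triple Bcat and 6 in the ventral tumours without the block, where 1544 and 2009 of all genes were called, against 1296 and 734. It was 2 in triple Bcat with animal means (1388 of all genes). In those groups fitted alone with the glands it was 4 and 7 (2033 and 4398 of all genes). With array weights it was 7 in each of triple K5Cre, triple Bcat and the ventral tumours (6366, 6581 and 5717 of all genes). The count of all genes in quadruple went from 2794 to 6749. In the comparisons that stayed at 0, weights called 2557 of all genes in quadruple against triple Bcat and 498 against the masses. They called 3759 against the ventral tumours, 2551 in triple K5Cre against triple Bcat and 0 in quadruple against triple K5Cre. The count of the 8 was 1 in triple Bcat with the 12129 genes left by a filter on low values (1059 called of those). It was also 1 there with cyclic loess (1373 of all genes), which left 2 in the masses (1357 of all genes). The mean of all probe sets left 1 in the masses (1292 of all genes), and the epithelial covariate gave 5 in triple K5Cre (3573). The adipocyte and muscle covariates gave 0 in quadruple, triple K5Cre and the masses (50, 35 and 5 of all genes). Without the arrays low in Xist the count of the 8 was 1 in triple Bcat and 2 in the masses (743 and 836 of all genes). Leaving out single glands, triple Bcat arrays or ventral tumours gave 0 to 5 in quadruple (6 without quadruple 8) and 0 to 4 in triple K5Cre. It gave 0 to 2 in triple Bcat, 0 to 3 in the masses and 0 to 1 in the ventral tumours. All genes called in quadruple numbered 1671 without normal gland 3 and 50 when adjusted for the adipocyte and muscle means.

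The replicate block, which pairs breast and gland of T627 and T635, called 0 of the 8 genes in triple K5Cre and 0 of all genes (limma, 2694 at an unadjusted p under 0.05), with Dsg2 at -0.051.

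None of the values that turned sign passed, and the cause was not tested. With those covariates Dsc2 was at -0.99 in quadruple, -1.39 in triple K5Cre, -0.76 in triple Bcat, -0.32 in the masses and -0.79 in the ventral tumours. Jup was at -0.17 in quadruple and -0.29 in triple K5Cre, where Dsp was at -0.066, Pkp1 at -0.048 and Pkp3 at -0.19, and Pkp2 was at 0.415 in the masses. Dsg2 against gland was, in quadruple, -0.021 with loess, -0.092 with array weights, -0.010 without normal gland 2 (up to 0.144 over the glands left out in turn) and -0.027 without the arrays low in Xist. In triple K5Cre it was -0.023 with loess, -0.125 with array weights, -0.079 with the epithelial covariate and -0.002 without the arrays low in Xist. In triple Bcat it was 0.32 with array weights, and -0.523 to 0.074 as its arrays were left out in turn.

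In quadruple against triple K5Cre, Dsg2 was 0 with animal means, 0.002 with loess, 0.033 with array weights and 0.089 with the epithelial covariate. Jup was -0.003 with animal means, -0.038 with array weights and -0.014 without the arrays low in Xist. Pkp2 was 0.12 with array weights, 0.026 with the epithelial covariate and 0.030 without the arrays low in Xist. With the epithelial covariate Dsc2 was -0.019, Dsp -0.089 and Pkp1 -0.041, and without the arrays low in Xist Dsp was -0.054 and Pkp3 -0.035. In quadruple against triple Bcat, array weights gave Dsg2 -0.41, Pkp2 -0.41, Jup 0.004 and Pkp3 0.001, and leaving out the triple Bcat arrays in turn gave Dsg2 -0.017 to 0.58, Jup -0.705 to 0.17 and Pkp3 -0.903 to 0.031. In triple K5Cre against triple Bcat, array weights gave Dsg2 -0.45, Pkp2 -0.53 and Jup 0.042, and leaving out the triple Bcat arrays in turn gave Jup -0.718 to 0.16. In quadruple against the ventral tumours Jup was 0.036 with array weights. A group of 2 to 4 arrays limits all comparisons with gland.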
